A study of Homo sapiens with 11 samples.

Results

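The genes described here are the Fc gamma receptor genes FCGR1A, FCGR2A, FCGR2B and FCGR2C, the neonatal Fc receptor gene FCGRT, the ITAM adaptor genes FCER1G and TYROBP, and the kinase gene SYK. They are 8 of the 38557 genes in the count table, taken by gene symbol, and all 8 were among the 14683 genes with enough counts to be tested. Their RNA was sequenced from MOLM-13 cells, a line grown from a human acute myeloid leukemia with a rearranged KMT2A gene. Cells were exposed for 72 h to DMSO as the diluent (4 libraries, replicates 1 to 4), to 1 µM MI-503, an inhibitor of the KMT2A partner Menin (4 libraries, replicates 1 to 4), or to the same dose of MI-503 with 100 nM PR-957, which blocks PSMB8 of the immunoproteasome (3 libraries, replicates 1, 2 and 4, called the combination). All libraries came from this single line, and none of those analysed had PR-957 without MI-503, so its effect is seen only beside the Menin inhibitor. The labels do not say that replicates were separate cultures, so p-values measure only the spread between these libraries, which may be technical. The genes were chosen by symbol with their measured counts in view, among them the spread of FCGR2B over the combination libraries, so FCGR2B is described there without a test. FCGR2C followed FCGR2B closely, so its tests with the combination are not independent of that choice.

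Fc gamma receptors bind the constant part of IgG and let myeloid cells recognize antibody-coated targets. The activating receptors signal through an ITAM, a pair of tyrosines that SRC family kinases phosphorylate and that SYK then binds. FCGR1A, the high-affinity receptor, borrows its ITAM from FCER1G, the common gamma chain, whereas FCGR2A and FCGR2C carry one in their own tail. FCGR2B carries an inhibitory ITIM instead. TYROBP, also called DAP12, is the ITAM adaptor of many other myeloid receptors. FCGRT differs in kind: it pairs with beta-2-microglobulin and returns IgG and albumin from endosomes to the outside of the cell.

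Libraries held between 18891243 and 41153974 counted fragments. The combination libraries were not alike: between replicates 2 and 4 a chi-square of the counts came to 4.61 per degree of freedom, inside the range of 1.72 to 5.99 among DMSO and MI-503 replicates, whereas replicate 1 stood at 19.9 from replicate 2 and at 34.4 from replicate 4. Replicate 1 was also the deepest library, and its values are given separately for the 8 genes and their locus, whereas genes of the pathway lists are given as group means unless stated. Of 7 markers of the MOLM-13 line, 6 were above 1 CPM in each group (CPM, fragment counts scaled to a common library total after TMM adjustment), and ANPEP was near 0 at 0.0459, 0.145 and 0.535 CPM in DMSO, MI-503 and the combination. Summed over 4 markers each, T cell, NK cell and erythroid genes did not pass 0.335 CPM in any library. The 4 stromal markers summed to 0.27 to 0.827 CPM in DMSO, 0.368 to 0.578 in MI-503 and 0.781 to 1.13 in the combination, where COL1A1 was higher than in DMSO (log2 1.17, adjusted p = 0.00808). The 4 B cell markers summed to 48.8 to 51.5 CPM in DMSO, 33.6 to 34.2 in MI-503 and 24.1 to 27.7 in the combination, nearly all of it PAX5. The part of these markers in the results was not tested.

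FCGR2A (chr1:161505430-161524048, hg38), FCGR2C (chr1:161581339-161601220) and FCGR2B (chr1:161647243-161678654) lie on the plus strand of one locus, with FCGR3A and FCGR3B between them. FCER1G is on the same chromosome (chr1:161215295-161219245, plus strand), as is FCGR1A (chr1:149782071-149792518, plus strand). FCGRT (chr19:49512661-49526428, plus strand) and TYROBP (chr19:35904403-35908295, minus strand) share chromosome 19, and SYK is at chr9:90801600-90898549, plus strand. The sequences before the transcription starts are shown for FCGR2B, which shares one with FCGR2C, for their neighbor FCGR2A, and for TYROBP and FCGRT, whose profiles lay close to each other. They were taken from RefSeq on GRCh38.p14, which held an entry for 7 of the 8 genes, all but FCGR2C. Each is the 250 bases before a start, written 5′ to 3′ on the strand of the gene. Capitals mark GAGGAA, the core bound by the myeloid factor PU.1, and TTCNNNGAA, the pattern bound by STAT factors, searched on both strands, so that GAGGAA on the other strand reads TTCCTC.

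FCGR2B, second start (chr1:161662893-161663142, plus strand): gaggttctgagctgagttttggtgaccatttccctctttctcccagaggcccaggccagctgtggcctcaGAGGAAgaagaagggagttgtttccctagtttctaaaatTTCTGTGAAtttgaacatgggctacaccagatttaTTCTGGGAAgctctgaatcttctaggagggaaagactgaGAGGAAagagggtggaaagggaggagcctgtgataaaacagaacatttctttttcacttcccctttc
FCGR2A (chr1:161505207-161505456, plus strand): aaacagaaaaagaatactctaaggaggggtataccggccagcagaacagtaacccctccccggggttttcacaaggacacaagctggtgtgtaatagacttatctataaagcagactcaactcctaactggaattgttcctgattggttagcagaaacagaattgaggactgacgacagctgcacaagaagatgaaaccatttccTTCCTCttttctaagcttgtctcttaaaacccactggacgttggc
TYROBP (chr19:35908296-35908545, minus strand): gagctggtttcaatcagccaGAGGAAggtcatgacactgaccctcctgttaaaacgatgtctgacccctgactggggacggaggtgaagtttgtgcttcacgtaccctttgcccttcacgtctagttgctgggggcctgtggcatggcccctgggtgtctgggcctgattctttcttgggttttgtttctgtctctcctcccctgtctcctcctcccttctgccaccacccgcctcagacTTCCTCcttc
FCGRT (chr19:49512411-49512660, plus strand): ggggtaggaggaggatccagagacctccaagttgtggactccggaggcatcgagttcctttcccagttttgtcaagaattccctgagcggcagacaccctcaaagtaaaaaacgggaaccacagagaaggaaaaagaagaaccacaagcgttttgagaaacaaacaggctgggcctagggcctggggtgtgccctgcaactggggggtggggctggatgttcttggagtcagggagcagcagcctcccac

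The FCGR2B sequence is shown because it stands base for base before FCGR2C as well, at chr1:161581089-161581338. The 2 copies are 81804 bases apart and belong to an exact run of 1699 bases in hg38. The shared sequence holds GAGGAA 180 and 67 bases before the start and TTCNNNGAA 141 and 106 bases before it, whereas the window before the first start of FCGR2B (chr1:161646993-161647242) holds neither. FCGR2A holds GAGGAA once, 45 bases before its start, and TYROBP holds it 230 and 10 bases before its start. FCGRT holds neither pattern in this window, and neither does FCER1G. Of the genes not shown, FCGR1A holds GAGGAA 46 bases and TTCNNNGAA 93 bases before its start, and SYK holds GAGGAA before 2 of its 3 listed starts. Over 35116 RefSeq promoter windows of this length, 23.6% held GAGGAA and 6.57% held TTCNNNGAA. No motif overlapped another in the 4 sequences, and a match is a description of letters, not a measured site.

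The likeness extends to the exons and bears on the counts, since fragments that mapped to several places were left out by the authors' counting. Of all 100-base windows in the exons, 33.8% recurred elsewhere in hg38 for FCGR2C, 18.4% for FCGR2A and 16.7% for FCGR2B. FCGR2C shared windows with both FCGR2A and FCGR2B. For FCGR1A the share was 63.5%, mostly with FCGR1B, FCGR1CP and other copies. FCGRT, FCER1G, TYROBP and SYK had 0%. How far this touches the values of FCGR2C and FCGR2B was not tested, and the level of FCGR1A per length may be undercounted relative to the others.

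Per kilobase of exon, SYK and TYROBP stood highest in DMSO, at 31.6 ± 1.39 and 30 ± 2.76 CPM per kb (SD, n = 4), with ranges that overlapped. FCGRT followed at 18.6 ± 1.91, FCGR1A at 10.2 ± 0.548 and FCGR2A at 4.86 ± 0.75 CPM per kb, each apart from its neighbors in every library. FCGR2B (2.53 ± 0.713) and FCGR2C (2.15 ± 0.809) overlapped. FCER1G was lowest at 0.879 ± 0.21 CPM per kb. In MI-503 the order began with TYROBP (59.9 ± 4.02), FCGRT (41.4 ± 1.66) and SYK (35.7 ± 1.61 CPM per kb), with no overlap between them. In the combination FCGR2B came last, at 1.24 ± 0.806 CPM per kb (n = 3), behind FCER1G at 2.42 ± 0.943 and FCGR2C at 1.27 ± 0.763, and the ranges of these neighbors overlapped. As these are bulk samples, fewer cells with a transcript and less RNA per cell cannot be told apart.

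The question put by MI-503 against DMSO is what Menin inhibition alone does to these genes. Of the 8 genes, 5 rose and 0 fell: FCGR1A, FCGR2A, FCGRT, TYROBP and SYK. Over all tested genes 51.4% were called at an adjusted p under 0.05, 22.0% as higher and 29.3% as lower. The median log2 fold change was 0.32 over the 8 genes and -0.03 over all genes tested. FCGR2B, FCGR2C and FCER1G were not called.

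FCGRT stood at 27.6, 32.3, 33.8 and 27.9 CPM in DMSO replicates 1 to 4 and at 70.1, 66.1, 69.4 and 64.4 CPM in MI-503 replicates 1 to 4. Every MI-503 library was above every DMSO library. The rise was 2.23-fold (log2 1.15, SE 0.14, adjusted p = 2.18e-06). TYROBP stood at 15.9, 18.8, 18.4 and 15.8 CPM in DMSO and at 36.7, 34.4, 35.3 and 31.2 CPM in MI-503. The groups again did not overlap, and the log2 fold change was 1.00 (SE 0.11, adjusted p = 1.43e-06). Among 10040 genes averaging 5 CPM or more, the centred log2 profile over the 11 libraries that lay nearest to FCGRT was that of GRN, the progranulin gene, at a root-mean-square difference of 0.067. TYROBP was the next, at 0.104, where the median over all these genes was 0.728. The nearest profiles to TYROBP were FCGRT (0.104), SERPINB1, a neutrophil protease inhibitor (0.107), and GRN (0.113).

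FCGR2A gave 18, 23.8, 23.1 and 17.9 CPM in DMSO and 32.7, 32.5, 34.7 and 33.3 CPM in MI-503. DMSO replicates 2 and 3 were the higher pair, and still lay below all MI-503 libraries. The rise was 1.61-fold (log2 0.69, SE 0.08, adjusted p = 1.98e-06). FCGR1A gave 27.8, 27.2, 28.5 and 30.7 CPM in DMSO and 35.7, 33.9, 38.5 and 37.1 CPM in MI-503, a 1.27-fold rise without overlap (log2 0.35, SE 0.09, adjusted p = 0.00357). SYK, the kinase on which ITAM signals converge, gave 183, 165, 173 and 178 CPM in DMSO and 186, 195, 205 and 204 CPM in MI-503. Its rise was small, 1.13-fold (log2 0.18, SE 0.06, adjusted p = 0.0265), and the call was lost when DMSO replicate 2 or 3 or MI-503 replicate 3 or 4 was left out (adjusted p = 0.0792, 0.06, 0.0692 and 0.0672).

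FCGR2B, the inhibitory receptor, gave 7.56, 11.8, 10.1 and 6.17 CPM in DMSO and 9.67, 10.0, 9.33 and 10.5 CPM in MI-503. The MI-503 libraries lay inside the range of the DMSO libraries, and the log2 difference was 0.16 (SE 0.25, adjusted p = 0.618). FCGR2C gave 3.81, 7.67, 6.36 and 3.51 CPM in DMSO and 7.31, 7.53, 4.95 and 6.14 CPM in MI-503, with a log2 difference of 0.30 (SE 0.28, adjusted p = 0.392). In both genes DMSO replicates 2 and 3 were above replicates 1 and 4, as in FCGR2A. FCER1G was at the edge of detection, with 10, 12, 12 and 13 fragments in DMSO and 11, 16, 9 and 17 in MI-503. Its means were 0.519 ± 0.124 and 0.51 ± 0.136 CPM (SD, n = 4), and 3 of 4 libraries in each group reached the filter's cutoff of 0.413 CPM. A change of FCER1G was not detectable at this depth (SE 0.34 on the log2 scale, adjusted p = 0.994).

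**Figure D1:**
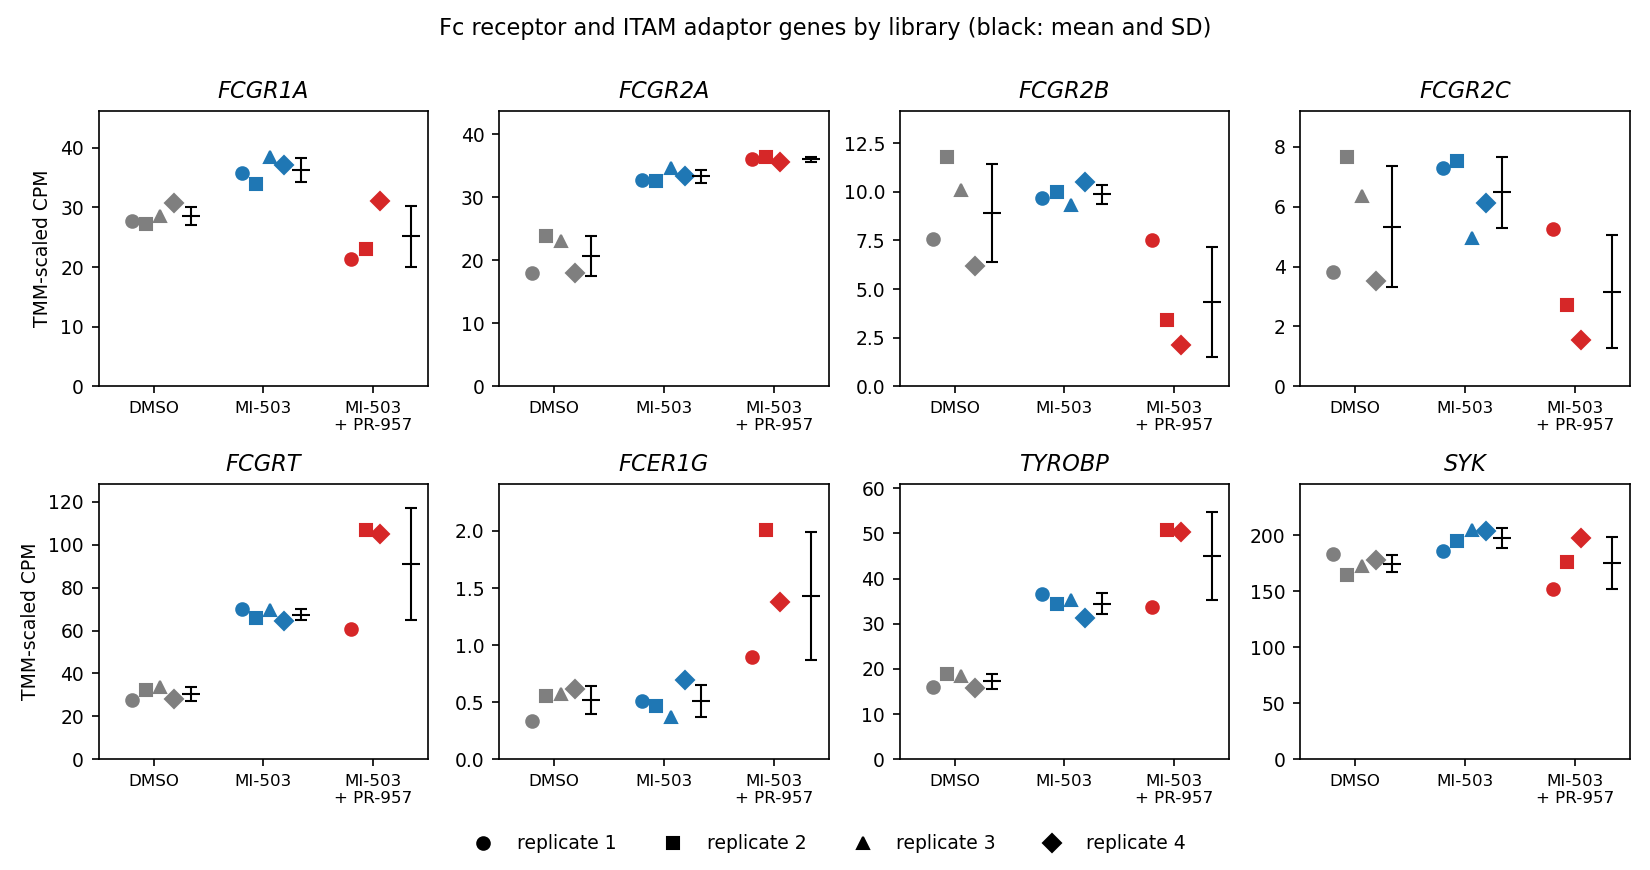
TMM-scaled CPM (y axes, each from 0) of the 8 genes in DMSO, MI-503 and MI-503 + PR-957 libraries (x axes); symbols give the replicate, black bars the mean and SD. FCGRT and TYROBP were above all DMSO libraries in every treated library, and FCGR2B in the combination ran from 7.53 CPM in replicate 1 to 2.12 in replicate 4.

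With PR-957 added, the combination was first set against DMSO. Of the 7 genes tested, FCGR2A, FCGRT, FCER1G and TYROBP rose and 0 fell, so 4 were called. Over all genes 64.5% were called in this comparison, 31.7% as higher and 32.8% as lower. The median log2 fold change was 0.80 over the 7 genes and 0.01 over all genes tested. FCGR1A (log2 -0.19, SE 0.10, adjusted p = 0.104), FCGR2C (log2 -0.66, SE 0.32, adjusted p = 0.0801) and SYK (log2 0.00, SE 0.07, adjusted p = 0.96) were not called. Without combination replicate 1, 5 of the 7 were called, with FCGR2C lower (log2 -1.34, adjusted p = 3.48e-04). Without combination replicate 4, 5 were called too, with FCGR1A lower (log2 -0.37, adjusted p = 2.24e-04). FCGR2C was called lower in 4 of the alternatives, the fit without combination replicate 1 among them.

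Against MI-503 alone, which asks what PR-957 added, 3 of the 7 genes rose (FCGRT, FCER1G and TYROBP) and 3 fell (FCGR1A, FCGR2C and SYK). The place of FCGR2C in this count is not independent of the known spread of FCGR2B. The background was 47.4% of all genes called, 23.6% as higher and 23.8% as lower. The median was 0.11 over the 7 genes and 0.00 over all genes. FCGR2A was not called (log2 0.11, SE 0.08, adjusted p = 0.268). The count of 6 dropped to 3 without combination replicate 2 and to 3 without replicate 4, and was 5 without replicate 1. Both comparisons with MI-503 libraries share those libraries, and both with DMSO share the DMSO libraries.

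**Figure D2:**
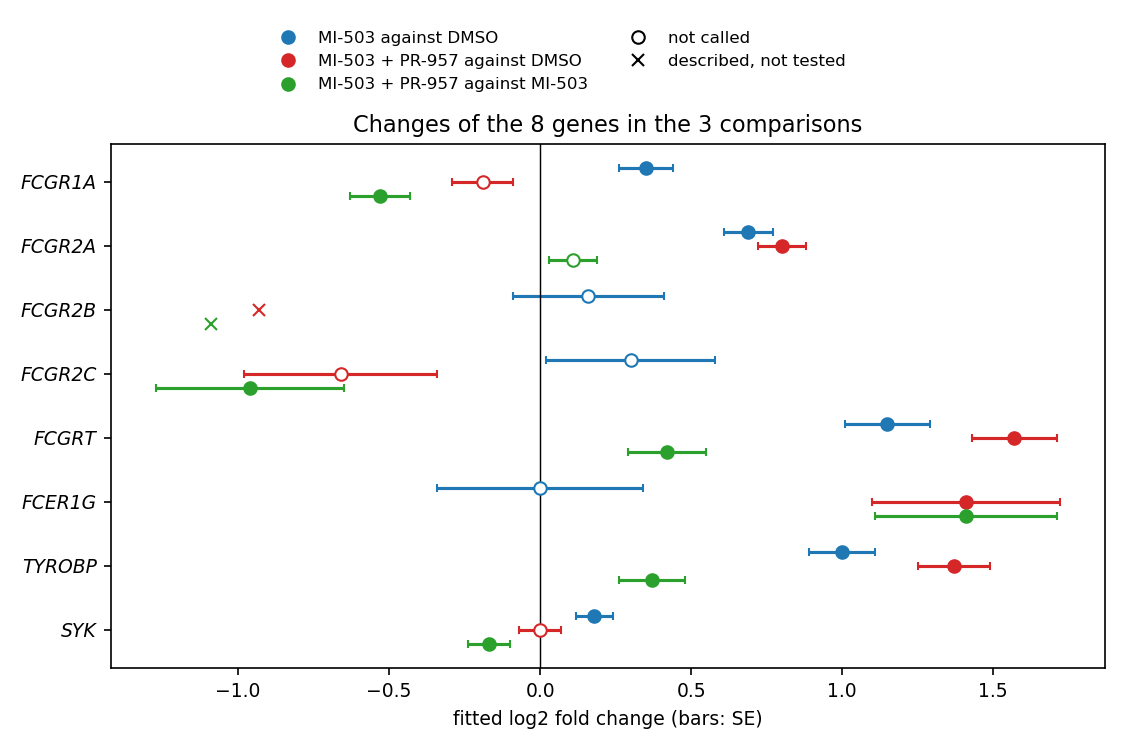
Fitted log2 fold change (x axis, bars SE) of each gene (y axis) in the 3 comparisons; filled points were called at an adjusted p under 0.05, open points were not, and crosses mark FCGR2B where it was not tested. TYROBP and FCGRT lie right of 0 in all 3 comparisons, and FCGR1A lies at 0.35 for MI-503 against DMSO and at -0.53 for the combination against MI-503.

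FCER1G, the gamma chain, rose in the combination against both other groups. The combination libraries held 38, 40 and 37 fragments in replicates 1, 2 and 4, at 0.897, 2.01 and 1.38 CPM. Each of the 3 was above all 8 other libraries. The rise was 2.66-fold over DMSO (log2 1.41, SE 0.31, adjusted p = 7.12e-04) and 2.65-fold over MI-503 (log2 1.41, SE 0.30, adjusted p = 0.00106). The profiles nearest to FCER1G were those of RNA45SN2, a ribosomal RNA precursor (0.277), the histone gene H2BC12 (0.297) and DDIT3, a stress-induced transcription factor also called CHOP (0.335), at a median of 0.756 over all genes. With 9 to 17 fragments in each DMSO or MI-503 library, the FCER1G profile rests on few counts. Its smallest distance was the largest such value among the 8 genes, so these neighbors are loosely placed. Despite its rise FCER1G stayed far below TYROBP, which in the same combination libraries stood at 33.7, 50.8 and 50.3 CPM.

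TYROBP and FCGRT split the combination libraries in the same way. TYROBP in replicate 1 was inside the range of the MI-503 libraries, and replicates 2 and 4 were above all of them, at 1.48 and 1.46 times the MI-503 mean. FCGRT gave 60.7, 107 and 105 CPM in replicates 1, 2 and 4, so that replicate 1 lay below all 4 MI-503 libraries and the other 2 lay above them, at 1.59 and 1.56 times their mean. Against MI-503 the group differences were log2 0.37 for TYROBP (SE 0.11, adjusted p = 0.011) and log2 0.42 for FCGRT (SE 0.13, adjusted p = 0.0167). These calls rested on replicates 2 and 4: without replicate 2 the adjusted p was 0.127 for TYROBP and 0.177 for FCGRT, and without replicate 4 it was 0.112 and 0.151. Against DMSO both genes were above all DMSO libraries in all 3 combination libraries (TYROBP log2 1.37, SE 0.12, adjusted p = 2.02e-08, and FCGRT log2 1.57, SE 0.14, adjusted p = 3.71e-08).

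FCGR1A went the other way. The combination libraries stood at 21.4, 23.0 and 31 CPM, all below the lowest MI-503 library. The fall was 1.45-fold (log2 -0.53, SE 0.10, adjusted p = 2.34e-04). Replicates 1 and 2 were also below all DMSO libraries, while replicate 4 was above all of them. FCGR1B, a near-identical copy, was also lower in the combination than in MI-503 (log2 -0.71, SE 0.15, adjusted p = 0.00113). In the other 2 comparisons FCGR1B differed from FCGR1A. It was not called for MI-503 against DMSO, at 3.45 and 3.47 CPM (adjusted p = 0.99). Against DMSO it was called lower in the combination (log2 -0.71, SE 0.16, adjusted p = 6.85e-04). The profiles nearest to FCGR1A were LINC00623 (0.072), GFI1, a myeloid transcriptional repressor (0.085), and DBI (0.093), at a median of 0.320 over all genes. SYK gave 152, 176 and 198 CPM, with replicate 1 below all DMSO and MI-503 libraries and replicate 4 inside the MI-503 range. Its difference from MI-503 (log2 -0.17, SE 0.07, adjusted p = 0.0462) lost its call in 9 of the alternatives, among them without combination replicate 1 (log2 -0.10, adjusted p = 0.109). Its nearest profiles were TOR1A (0.049), ZDHHC3 (0.054) and RNF41 (0.054).

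FCGR2A was the steadiest gene of the combination, at 36.1, 36.4 and 35.6 CPM, a highest-to-lowest ratio of 1.02. All 3 libraries were above all 4 MI-503 libraries, but by little. Over DMSO the rise was 1.74-fold (log2 0.80, SE 0.08, adjusted p = 2.56e-07). Its nearest profiles were SLC27A1, a fatty acid transporter (0.088), TIMP2, a metalloproteinase inhibitor (0.091), and EGFL7 (0.093).

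FCGR2B differed among the combination libraries more than any other of the 8 genes, which is a description, since this spread was known when the genes were chosen. It gave 319, 68 and 57 fragments in replicates 1, 2 and 4, or 7.53, 3.41 and 2.12 CPM. Replicate 1 was inside the DMSO range and below all 4 MI-503 libraries, while replicates 2 and 4 were below every DMSO and MI-503 library. Relative to the MI-503 mean, FCGR2B was 1.31-fold lower in replicate 1, 2.90-fold lower in replicate 2 and 4.66-fold lower in replicate 4. Relative to the DMSO mean it was 1.14-fold, 2.53-fold and 4.06-fold lower. The fitted group difference was log2 -0.93 from DMSO and -1.09 from MI-503, and it was -1.70 and -1.90 without replicate 1, -0.80 and -1.0 without replicate 2, and -0.60 and -0.80 without replicate 4.

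The highest-to-lowest ratio of FCGR2B was 3.55 in the combination, 1.91 in DMSO and 1.13 in MI-503. Among 12569 tested genes that averaged 1 CPM or more in the combination, 0.438% (55 genes) ranged over more than 3-fold there. Of these, 13 (23.6%) were highest in replicate 1 and lowest in replicate 4, which is the order of FCGR2B. As this spread was known when FCGR2B was chosen, its rarity is no support for FCGR2B. FCGR2C was next among the 8 genes with a ratio of 3.44. It gave 222, 54 and 41 fragments, or 5.24, 2.71 and 1.53 CPM, with replicate 1 inside the ranges of both other groups and replicates 2 and 4 below every library of both. Against MI-503 FCGR2C fell (log2 -0.96, SE 0.31, adjusted p = 0.0174), a call that was lost without combination replicate 4 (log2 -0.67, adjusted p = 0.0519) and was log2 -1.70 without replicate 1. Because FCGR2C followed FCGR2B over the libraries, this call does not stand apart from the spread known beforehand. Of the exon windows, 66.2% for FCGR2C and 83.3% for FCGR2B occur once in hg38, and the part of shared sequence in the likeness of their counts was not tested.

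The neighbors of the 2 genes were then read off the same libraries, as shown in the plot of the locus. HSPA7, a heat shock pseudogene that lies between FCGR2C and FCGR2B, gave 12.5, 22.1, 19.3 and 11 CPM in DMSO, 19.4, 16.7, 15.6 and 13.6 in MI-503, and 10.9, 7.78 and 3.42 in combination replicates 1, 2 and 4. It was the second nearest profile to FCGR2B (0.214) after FCGR2C (0.210), followed by MEX3A (0.258) and a median of 0.736 over all genes. For FCGR2C the nearest were FCGR2B (0.210), HSPA7 (0.232) and HSH2D (0.301). HSPA7 was lower in the combination than in DMSO (log2 -1.09, SE 0.28, adjusted p = 0.0024) and than in MI-503 (log2 -1.11, SE 0.28, adjusted p = 0.0032), and it did not pass the test for MI-503 against DMSO (log2 0.02, adjusted p = 0.961). Because HSPA7 followed FCGR2B over the libraries, its 2 calls with the combination are not independent of the spread known beforehand. DMSO replicates 2 and 3 were its higher pair as well.

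Of the other genes of the locus, FCRLA alone had the same order of combination libraries. HSPA6, a stress-induced heat shock gene just past FCGR2A, was low, at a mean of 0.696 CPM in DMSO and 1.85 CPM in the combination, where it rose (log2 1.35, SE 0.31, adjusted p = 0.00105). HSPA6 and HSPA7 have exon windows of 100 bases in common, 33.9% and 32.0% of their windows. FCRLA gave 1.30, 0.552 and 0.298 CPM in combination replicates 1, 2 and 4, on 55, 11 and 8 fragments, and was called in none of the 3 comparisons (adjusted p = 0.0743, 0.169 and 0.697). FCRLB, the last gene of the stretch, gave 3.02, 2.46 and 3.65 CPM and was not called either (adjusted p = 0.0644, 0.839 and 0.0552). FCGR3A had 1 fragment in each of 3 libraries and FCGR3B had 0 in all 11, which allows up to 3 fragments over these libraries. The pseudogene RPL31P11 had at most 3 fragments in a library.

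**Figure D3:**
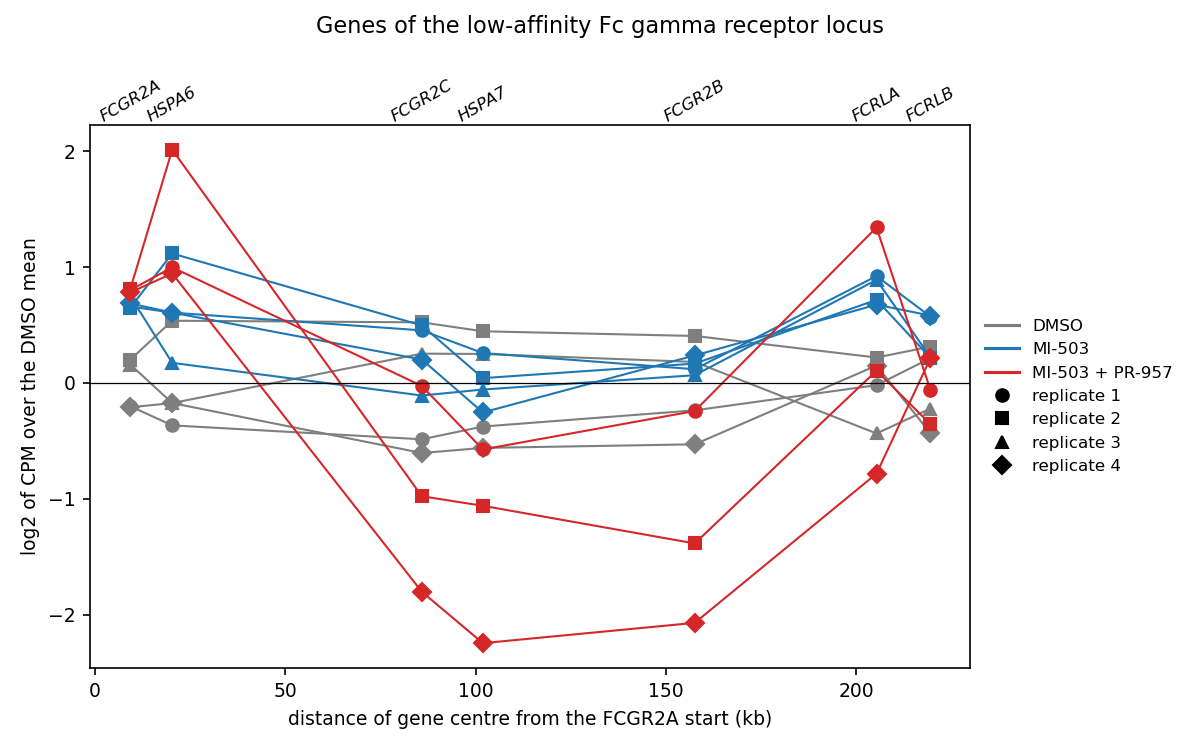
Log2 of each library's CPM over the DMSO mean (y axis) for 7 genes of the locus, placed by the distance of the gene centre from the FCGR2A start in kb (x axis); colors give the group, symbols the replicate, and lines join 1 library. Combination replicates 2 and 4 drop at FCGR2C, HSPA7 and FCGR2B but not at FCGR2A, where all 3 combination libraries lie together above DMSO. At HSPA7 replicate 1, at 10.9 CPM, also lies below every DMSO and MI-503 library.

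Ratios inside a library do not depend on how libraries are scaled. FCGR2A, which activates, was set against FCGR2B, which inhibits. Per kilobase the ratio of FCGR2A to FCGR2B was 1.96, 1.67, 1.89 and 2.39 in DMSO replicates 1 to 4 and 2.78, 2.66, 3.06 and 2.6 in MI-503 replicates 1 to 4. The groups did not overlap. On the log2 scale the means were 0.97 ± 0.22 and 1.47 ± 0.10 (SD, n = 4 each), a difference of 0.50, with p = 0.0286 in a two-sided exact permutation test, the smallest that 4 against 4 libraries allow. Adjusted over the 4 ratio tests, this exact permutation p became 0.0762 and missed the threshold. In the combination the ratio was 3.94, 8.77 and 13.8 in replicates 1, 2 and 4, above every other library in each case. The ratio of FCGR2C to FCGR2B stayed between 0.711 and 1.12 in all 11 libraries.

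For the 2 adaptors, TYROBP exceeded FCER1G per kilobase 48.4, 35.1, 33.1 and 26.3 times in DMSO, 73.9, 76.0, 97.6 and 46.1 times in MI-503, and 38.5, 26 and 37.5 times in combination replicates 1, 2 and 4. MI-503 replicate 4 lay inside the DMSO range, and every MI-503 library was above every combination library. The mean log2 ratio of FCER1G to TYROBP was -5.12 ± 0.36 in DMSO, -6.15 ± 0.45 in MI-503 and -5.07 ± 0.32 in the combination. MI-503 differed from DMSO by -1.02 (exact permutation p = 0.0571, adjusted 0.0762) and the combination from MI-503 by 1.08 (exact permutation p = 0.0571, adjusted 0.0762), neither past the threshold. The combination and DMSO differed by 0.06 (exact permutation p = 0.914).

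**Figure D4:**
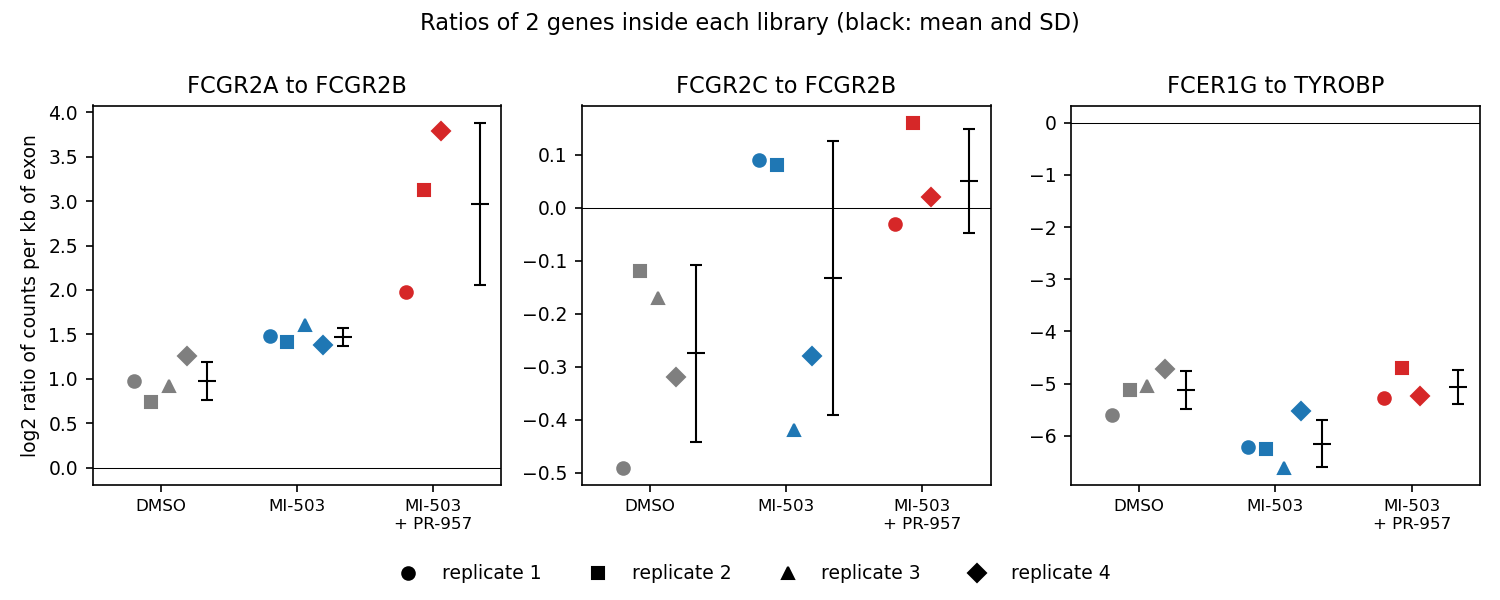
Log2 ratio of counts per kb of exon inside each library (y axes, scales differ) for FCGR2A to FCGR2B, FCGR2C to FCGR2B and FCER1G to TYROBP, by group (x axes); symbols give the replicate, black bars the mean and SD. The first ratio is highest in combination replicate 4, at 3.79, and the second stays between -0.49 and 0.16.

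The other genes of the pathway were taken from 7 lists, 130 genes of which 129 were in the table and 88 were tested. With MI-503 against DMSO 51 rose and 11 fell, 70.5% called where all genes gave 51.4%. With the combination against DMSO 46 rose and 22 fell, 77.3% where all genes gave 64.5%. With the combination against MI-503 21 rose and 30 fell, 58% where all genes gave 47.4%, and the share that rose was near the 23.6% of all genes. The share over all genes depends on their level. Where only genes of at least 5 CPM in 3 libraries were tested, it was 60.3%, 74.3% and 59.1% in the 3 comparisons. The list genes were not restricted in that way, so the gap to all genes is not a property of the lists alone. The filter bears on these counts: 9 of the 88 genes had no DMSO library at its cutoff of 0.413 CPM and were tested only through treated libraries, so they could hardly be seen to fall. They are CLEC1B, OSCAR, SIGLEC14, SIGLEC15, TREM1, CD72, CLEC12A, FCAMR and MS4A2. Of the 79 genes that reached the cutoff in at least 1 library of every group, a restriction chosen after seeing the data, 42 rose and 11 fell with MI-503 (median log2 0.25), 38 rose and 22 fell in the combination against DMSO (0.13), and 19 rose and 29 fell against MI-503 (-0.08). The counts per list below are over these genes. Several lists hold genes annotated on more than 1 contig of hg38 (OSCAR, LILRA1, LILRB4, LAIR1, B2M and INPP5D among those named here), whose fragments can be lost as multi-mapping. INPP5D, the SHIP1 phosphatase that acts at the FCGR2B ITIM, was not tested for want of counts.

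Among receptors that couple to FCER1G or TYROBP, or that carry a half-ITAM of their own, 5 of 6 rose with MI-503 and 0 fell, with a median log2 of 0.91. SIRPB1, a TYROBP partner, went from 43.3 to 59.9 CPM (log2 0.47, SE 0.07, adjusted p = 1.34e-05), and LILRA1, which uses FCER1G, from 0.5 to 1.4 CPM (log2 1.50, SE 0.23, adjusted p = 4.53e-05). In the combination 3 rose and 0 fell against DMSO, while 1 rose and 2 fell against MI-503. LILRA1 was among those that fell, to 0.46 CPM (log2 -1.58, SE 0.25, adjusted p = 5.91e-05). Of the 6 receptors 83.3%, 50% and 50% were called in the 3 comparisons, beside 51.4%, 64.5% and 47.4% of all genes. The other 5 tested receptors had no DMSO library at the cutoff. Of these, OSCAR, a collagen receptor that uses FCER1G, stood at means of 0.158, 0.874 and 1.22 CPM in DMSO, MI-503 and the combination, and SIGLEC14 at 0.0873, 0.579 and 0.787 CPM. CLEC1B, which signals through SYK, had 0 fragments in the 4 DMSO libraries and 32 in MI-503, at least 9.53-fold higher than the 3 fragments that a count of 0 over the group allows, and at least 29.2-fold higher in the combination on 83 fragments. It overlaps CLEC12A on the opposite strand, with 70 exon bases in common, and the counting did not use strand. CLEC12A stood at means of 0.241, 4.68 and 8.1 CPM in DMSO, MI-503 and the combination. The part of CLEC12A in the CLEC1B counts was not tested.

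HCST, the DAP10 adaptor, ends 25 bases from TYROBP on the opposite strand, and the counting did not use strand. It rose with MI-503 from 8.54 to 18.3 CPM (log2 1.10, SE 0.11, adjusted p = 5.63e-07). In the combination, at 8.66, 12.7 and 12.9 CPM in replicates 1, 2 and 4, it was lower than in MI-503 (log2 -0.70, SE 0.12, adjusted p = 1.31e-04), where TYROBP was higher. CD79A, the other adaptor tested, was at or below 1.19 CPM in each group and fell between MI-503 and the combination (log2 -1.22, SE 0.33, adjusted p = 0.00545).

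The ITIM receptors, the inhibitory counterparts, gave 7 of 11 higher and 0 lower with MI-503 (median log2 0.88), 8 higher and 2 lower in the combination against DMSO (median 1.26), and 4 higher and 2 lower against MI-503 (median 0.37). Called in these comparisons were 63.6%, 90.9% and 54.5%, beside 51.4%, 64.5% and 47.4% of all genes. PECAM1 went from 50.0 CPM in DMSO to 109 in MI-503 and to 125, 175 and 183 in combination replicates 1, 2 and 4 (log2 0.56 against MI-503, SE 0.09, adjusted p = 1.07e-04), and was the third nearest profile to FCGRT (0.124). CD300LF rose along the same steps, from 15.4 to 28.4 and 44.1 CPM (log2 0.63 against MI-503, SE 0.08, adjusted p = 9.38e-06). LILRB4 rose with MI-503 from 1.90 to 5.78 CPM (log2 1.60, SE 0.12, adjusted p = 1.19e-08). LAIR1, a collagen receptor, rose with PR-957 on top of MI-503, from 28.8 CPM to 32.8, 46.7 and 55 CPM in replicates 1, 2 and 4 (log2 0.63, SE 0.12, adjusted p = 5.31e-04).

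Of 8 tested kinases of the SRC, SYK and TEC families other than SYK, 4 rose and 4 fell with MI-503 (median log2 0.22). SRC, the founding member of the family that phosphorylates ITAMs, went from 14 CPM in DMSO to 22.2 in MI-503 and 30.9 in the combination, and both steps passed the test (log2 0.67, SE 0.07, adjusted p = 6.60e-07, and log2 0.48, SE 0.07, adjusted p = 2.75e-05). YES1 was lower in the combination than in DMSO (log2 -0.73, SE 0.06, adjusted p = 9.61e-09), and TEC was lower with MI-503 (log2 -0.74, SE 0.09, adjusted p = 1.80e-06). In the combination 4 rose and 3 fell against DMSO, and 4 rose and 1 fell against MI-503. Over the 3 comparisons 100%, 87.5% and 62.5% of these kinases were called, beside 51.4%, 64.5% and 47.4% of all genes. Genes of at least 5 CPM in 3 libraries, a level that all 8 kinases reach, gave 60.3%, 74.3% and 59.1%, the last near the share of the kinases.

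Downstream of SYK, 12 of 29 genes rose and 5 fell with MI-503 (median log2 0.08), 10 rose and 11 fell in the combination against DMSO (0.05), and 6 rose and 12 fell against MI-503 (-0.07). The shares called were 58.6%, 72.4% and 62.1%, beside 51.4%, 64.5% and 47.4% of all genes. Where only genes of at least 5 CPM in 3 libraries were tested, all genes gave 60.3%, 74.3% and 59.1%. This list was near these latter shares in all 3 comparisons. The adaptor FYB1 went from 14.7 to 44.4 CPM with MI-503 (log2 1.59, SE 0.07, adjusted p = 1.47e-11) and stood at 47.6 CPM in the combination. LAT, a scaffold best known from T cells, went from 4.49 to 13.2 CPM (log2 1.56, SE 0.12, adjusted p = 1.19e-08), and LCP2, also called SLP-76, from 59.2 to 90.1 CPM (log2 0.60, SE 0.06, adjusted p = 2.08e-07). With PR-957 on top, RAC2, a GTPase of blood cells, fell from 366 to 248 CPM (log2 -0.56, SE 0.06, adjusted p = 6.28e-07). CARD9, which links SYK to NF-kB, fell from 51.4 to 34.7 CPM (log2 -0.57, SE 0.06, adjusted p = 7.74e-07), and LAT2 from 271 to 192 CPM (log2 -0.50, SE 0.06, adjusted p = 1.87e-06).

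Phosphatases and other inhibitors gave 10 of 15 higher and 2 lower with MI-503 (median log2 0.25), 9 and 4 in the combination against DMSO (0.16), and 4 and 6 against MI-503 (-0.09). As shares these are 80%, 86.7% and 66.7% called, beside 51.4%, 64.5% and 47.4% of all genes. Genes of at least 5 CPM in 3 libraries, a level that all 15 inhibitors reach, gave 60.3%, 74.3% and 59.1%. DOK1, an adaptor that dampens kinase signals, rose in the combination from 41.1 CPM in MI-503 to 66.7 CPM (log2 0.70, SE 0.06, adjusted p = 4.06e-08), while its relative DOK3 fell from 105 to 79.1 CPM (log2 -0.42, SE 0.05, adjusted p = 6.65e-06). UBASH3B, a phosphatase that acts on SYK, fell with MI-503 from 100 to 62.8 CPM (log2 -0.67, SE 0.07, adjusted p = 2.91e-07) and further to 47.8 CPM in the combination. PTPN22 rose with MI-503 from 16.1 to 29.2 CPM (log2 0.86, SE 0.06, adjusted p = 1.37e-08), and PTPN12 from 75.6 to 98.5 CPM (log2 0.38, SE 0.04, adjusted p = 1.84e-06).

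Among other Fc receptors, 3 of 8 rose and 0 fell with MI-503 (median log2 0.35), 3 rose and 2 fell in the combination against DMSO (0.05), and 0 rose and 4 fell against MI-503 (-0.41). The shares called, 37.5%, 62.5% and 50%, were below or near those of all genes. B2M, the partner of FCGRT, rose with MI-503 from 59.0 to 74.1 CPM (log2 0.33, SE 0.04, adjusted p = 5.17e-06) and stood at 65.1 CPM in the combination. FCER2, the low-affinity IgE receptor CD23, rose from 1.13 to 4.08 CPM (log2 1.87, SE 0.19, adjusted p = 3.61e-07). MS4A2, the beta chain of the high-affinity IgE receptor, had no DMSO library at the cutoff, with a mean of 0.179 CPM there, and was lower in the combination, at 0.991 CPM, than in MI-503, at 1.80 CPM (log2 -0.85, SE 0.20, adjusted p = 0.0022). The summed level of the 4 mast cell markers, one of which is MS4A2, ran from 0.0475 to 0.322 CPM in DMSO, from 1.78 to 1.94 in MI-503 and from 1.19 to 1.30 in the combination. This sum mostly repeats MS4A2 in the treated groups. In MI-503 the means of TPSAB1, CPA3 and HDC were 0.0188, 0 and 0.0188 CPM, and in the combination 0.226, 0 and 0.0246 CPM. The part of these markers in the results was not tested. FCMR, the IgM receptor, fell from 1.73 CPM in MI-503 to 0.707 CPM (log2 -1.18, SE 0.26, adjusted p = 0.00142).

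**Figure D5:**
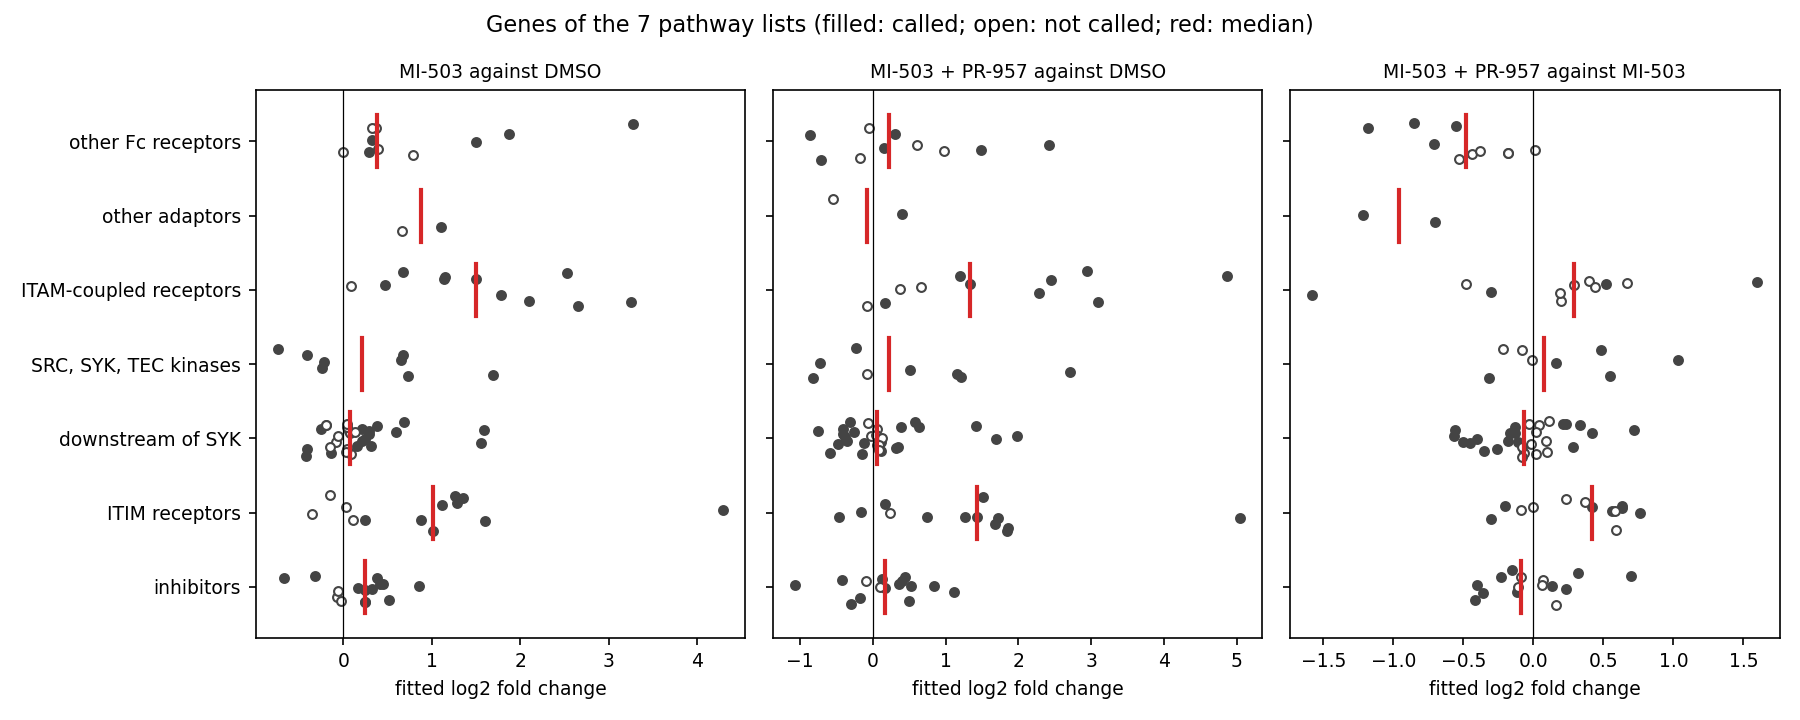
Fitted log2 fold change (x axes, scales differ) of the tested genes in the 7 lists (y axis) for the 3 comparisons; filled points were called, open points were not, red bars are medians, and CLEC1B is placed at its lower bound against DMSO. The plot holds all 88 tested genes, 9 of which had no DMSO library at the filter's cutoff, and differences between lists were not tested.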

How the data were processed

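Polyadenylated RNA of 11 MOLM-13 libraries had been sequenced as read pairs. What the authors deposited for each gene are unnormalized fragment counts. Per the submitters' processing notes, the authors used Trimmomatic 0.39, STAR 2.7.10a and featureCounts 2.0.1 on hg38. Per the file headers, fragments were counted over RefSeq exons without regard to strand, from alignments filtered by an unstated rule, and fragments with several mappings or several genes were left out, which lowers genes with near-identical copies. The joined table differed from the single-library counts in 0 cells, and 0 other columns of per-sample values were left aside. The authors' tables of differential expression, which hold log2 fold changes and p-values, were not used.

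The software was edgeR 4.0.16, with DESeq2 1.42.0 and limma 3.58.1 for alternatives, under R 4.3.3. Genes passing filterByExpr (minimum count 10, minimum total 15) entered 1 fit of all 11 libraries with a mean per group and TMM factors of 0.956 to 1.056. The common dispersion was 0.00378, and 8 degrees of freedom were left for the residual. Contrasts were tested by the two-sided quasi-likelihood test of edgeR, p-values were adjusted by the Benjamini-Hochberg method across the tested genes, and every adjusted p of a gene is from it. CPM are scaled to TMM-adjusted totals, and log2 CPM for profiles used a prior count of 0.5. Ratios were compared with exact permutation tests over libraries. The test was tried on simulated counts.

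The genes and the lists were chosen with earlier results of these data known. Named are the 8 genes, up to 3 genes with the smallest adjusted p per list and contrast, the 3 nearest profiles of each of the 8 genes by root-mean-square difference of centred log2 CPM (mean of at least 5 CPM), the genes from FCGR2A to FCRLB, and cell type markers. INPP5D was named after its counts were seen, and 1 gene that the rule names is not reported here. Exon windows were searched in hg38 outside alternate contigs. Python 3.11.15 with pysam 0.24.0 and matplotlib 3.10.9 read sequences and drew figures. Alternatives were other scalings and filters, DESeq2, limma-voom, a replicate block, fits of 2 groups, a stricter threshold, and leaving out each library. The restriction of list genes to those at the filter's cutoff in every group was added after seeing the data.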

Additional observations from a re-analysis of the deposited data

How the results depend on the processing

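Over 20 alternatives the number called for MI-503 against DMSO lay between 4 and 6 of the 8 genes, and for the combination against DMSO between 3 and 5 of the 7 tested. For the combination against MI-503 it lay between 2 and 6: it was 2 at an adjusted p under 0.01, and 3 to 6 when 1 library was left out. With the stricter filter FCER1G, under 5 CPM in every library, was not tested. The count of 3 for the combination against DMSO came with that filter, and is a lost test of FCER1G rather than a lost call. Counts over the pathway lists lay between 48 and 70, 54 and 72, and 36 and 57, and were 53, 60 and 48 over the genes at the filter's cutoff in every group. The share of all genes called ran from 27.9% to 60.3%, 36.8% to 74.3% and 26.3% to 59.1%. Same-numbered libraries did not deviate together: 10 pairs across groups had correlations of -0.10 to 0.14, 30 other pairs -0.13 to 0.12, and 3 of 11 libraries correlated best with their own number. The replicate block left the counts at 5, 4 and 6 for the receptor, adaptor and SYK genes and gave 64, 67 and 50 for the lists. Differences near 0 changed sign: FCER1G for MI-503 against DMSO (-0.05 with the replicate block, -0.19 without DMSO replicate 1, -0.17 without MI-503 replicate 4) and SYK for the combination against DMSO (-0.0043 with limma-voom, -0.02 without DMSO replicate 2, -0.0004 without DMSO replicate 3, -0.10 without combination replicate 4). The FCGRT call against MI-503 was lost with DESeq2 (adjusted p = 0.0811). FCGR2C was called with no filter for MI-503 against DMSO (adjusted p = 0.0328) and for the combination against DMSO (adjusted p = 3.07e-05). With 1 library left out, the log2 ratio of FCER1G to TYROBP ran from -1.23 to -0.87 for MI-503 against DMSO (exact permutation p = 0.0286 without MI-503 replicate 4), from 0.90 to 1.29 for the combination against MI-503, and from -0.12 to 0.19 for the combination against DMSO, where it was -0.10 without DMSO replicate 1 and -0.12 without combination replicate 2. For FCGR2A to FCGR2B it ran from 0.42 to 0.59, and 3 libraries against 4 allow no exact permutation p below 0.0286 and gave 0.0571 without any 1 MI-503 library. FCER1G, at 9 to 17 fragments per DMSO or MI-503 library, is limited by depth. The cause of these changes was not tested.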
